A study of Mus musculus with 6 samples.

Results

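Genes that break down extracellular ATP, clear adenosine and sense either were followed in natural killer (NK) cells at 3 stages of maturation. All probe sets of 10 listed genes were looked for in the deposited value table: Entpd1, Nt5e, Acpp, Adora2a, Adora2b, P2rx7, P2rx4, Ada, Pnp and Dpp4. The array annotation names 22 probe sets for 8 of them, out of 18193 genes and 45037 probe sets in all, and Adora2a and Adora2b were not analysed here. The list was selected on gene function with the log2 values and differences of these same arrays across the 3 subsets known, and no cut-off is recorded. The members' subset differences are therefore given as a description, without p-values. NK1.1+ cells were sorted from the spleens of RAG-/- mice, which lack mature T and B cells in every group, by CD27 and CD11b: least mature CD27+CD11b- cells, intermediate CD27+CD11b+ cells and most mature CD27-CD11b+ cells. Each subset was profiled in 2 RNA samples, each on its own Affymetrix mouse expression array, 6 arrays in all. Age, substrain and treatment are not in the labels used here. The series design calls the samples independent replicates without naming separate animals. The errors thus cover only the spread between replicate samples, which could be technical. The small number of arrays limits the precision.

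ATP released from stressed or dying cells acts as a danger signal through P2 receptors. The ectoenzyme CD39, encoded by Entpd1, removes phosphates from ATP and ADP, and CD73, encoded by Nt5e, converts the resulting AMP to adenosine, which dampens lymphocyte effector functions through receptors that raise cAMP. Adenosine is in turn removed by uptake, deamination to inosine by adenosine deaminase (Ada) and cleavage of inosine by purine nucleoside phosphorylase (Pnp).

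The 2 members with the widest range ran in opposite directions, and their promoter windows are shown because they stand at the start of the genes the results turn on. The windows cover 250 bases before and 50 bases after an annotated start and were taken from RefSeq, build GRCm38.p6, which had an entry for 9 of the 10 genes. Capitals mark matches, on either strand, to the T-box half-site AGGTGT, the Zeb-type E-box CAGGTG or the RUNX motif TGTGGT, of which the first pair can overlap in AGGTG.
Entpd1, upstream start, chr19:40612116-40612415, + strand: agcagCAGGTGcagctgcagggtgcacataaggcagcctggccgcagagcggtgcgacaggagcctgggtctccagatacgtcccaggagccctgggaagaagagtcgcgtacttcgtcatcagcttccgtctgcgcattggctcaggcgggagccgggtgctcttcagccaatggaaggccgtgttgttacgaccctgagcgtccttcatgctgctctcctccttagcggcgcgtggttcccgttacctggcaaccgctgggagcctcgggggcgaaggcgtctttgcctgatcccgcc
Entpd1, downstream start, chr19:40659520-40659819, + strand: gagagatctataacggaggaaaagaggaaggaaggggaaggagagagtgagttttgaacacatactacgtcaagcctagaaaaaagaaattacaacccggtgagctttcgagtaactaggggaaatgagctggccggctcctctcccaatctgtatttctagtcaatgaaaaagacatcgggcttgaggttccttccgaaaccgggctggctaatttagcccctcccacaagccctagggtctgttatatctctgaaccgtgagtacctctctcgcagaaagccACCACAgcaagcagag
Acpp, chr9:104337673-104337972, - strand: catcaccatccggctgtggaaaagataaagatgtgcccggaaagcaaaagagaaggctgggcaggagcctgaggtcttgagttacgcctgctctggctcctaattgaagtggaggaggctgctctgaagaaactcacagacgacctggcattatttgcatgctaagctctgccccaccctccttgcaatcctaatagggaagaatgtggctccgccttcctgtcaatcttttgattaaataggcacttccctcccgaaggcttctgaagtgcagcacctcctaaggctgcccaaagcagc
The upstream Entpd1 window held 1 E-box match and the downstream window 1 RUNX match, whereas the Acpp window held 0 matches to the 3 motifs. Over 32851 windows of 300 bases, 13.7% held the T-box half-site, 20.2% the E-box and 16.8% the RUNX motif, so a single match is common. The upstream Entpd1 window was 64.0% G or C with 23 CG pairs, the downstream one 48.7% with 10, and the Acpp window 52.0% with 6, against medians of 52.7% and 7 over all windows. A match is a description of the letters and not a binding site.

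Values are the authors' log2 expression values and means are given ± SD over n = 2 arrays. Differences are on the log2 scale, each with its standard error (SE) from a limma model of all genes. A gene was called where its adjusted p fell under 0.05 in that model. The level 6.57, the 95th percentile of 47 genes of other tissues, was taken as background, since the table holds no detection calls. It lay below the highest subset mean of 6 of the 8 members and of 8438 of 18193 genes. Each gene is described by its brightest probe set, and the others are given beside it. Levels of different probe sets cannot be compared with each other.

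All 11 measured NK cell markers lay above background, and Cd27 and Itgam (CD11b) followed the gates, with Cd27 at 8.41 ± 0.53, 8.57 ± 0.50 and 6.71 ± 0.35 and Itgam at 6.13 ± 0.34, 8.35 ± 0.48 and 9.69 ± 0.34 in order of maturation. For CD27-CD11b+ replicate 1 the sorting label names the CD27+CD11b- gate, against its title, which was followed here. Its Itgam value was 9.93. The arrays were also split across the subsets. A set of 3 unnamed probe sets averaged 12.57 to 12.81 on 3 arrays, replicate 2 of both CD27+ subsets and replicate 1 of CD27-CD11b+ (here the on arrays), and 4.33 to 4.47 on the remaining 3 (the off arrays). The mean of 15 monocyte and macrophage markers was 7.69 to 8.06 on the on arrays and 6.20 to 7.13 on the off arrays, and 3 of them (Cd14, Fcgr1 and Ms4a7) stayed at background. The means of the neutrophil (7.22 to 7.48 against 6.003 to 6.62) and dendritic cell (7.25 to 7.32 against 6.77 to 6.91) lists were likewise higher on all on arrays. In these lists 5 of 8 and 5 of 9 genes lay above background. The megakaryocyte list mean was also higher there (5.52 to 5.68 against 5.26 to 5.45), and that of the erythroid list lower (5.21 to 5.63 against 5.85 to 6.23). Both means stayed below background, with 1 of 6 and 2 of 6 genes above it. Markers of endothelium and stroma, 10 of 10, and of B cells, 8 of 9, were at background. Differences are therefore also given for either side of this division alone.

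**Figure D1:**
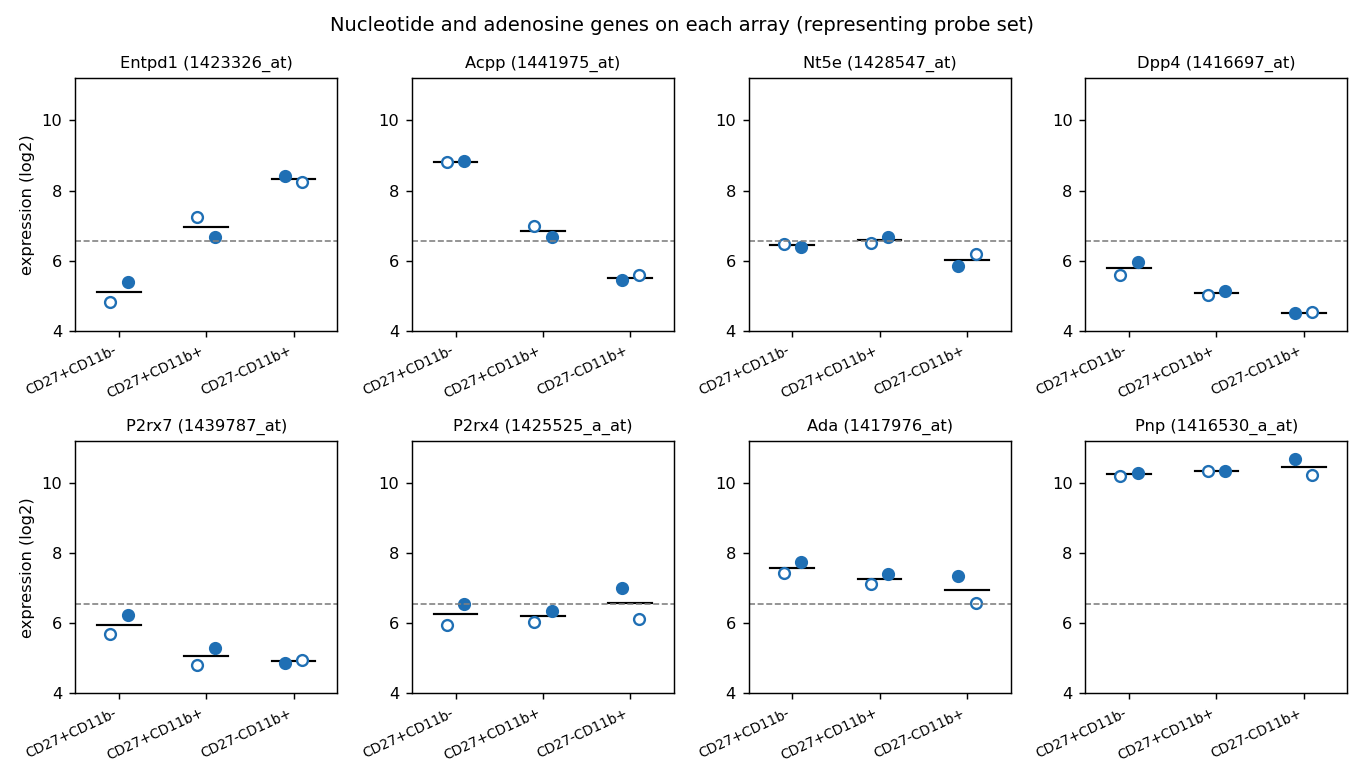
Log2 expression of the 8 measured members on each array (y axis) by subset (x axis). Filled points are on arrays, open points off arrays, bars subset means of 2 arrays and the dashed line the background level of 6.57. Entpd1 climbs from 4.82 to 8.42 and Acpp descends from 8.84 to 5.44 without overlap between subsets, while Pnp stays between 10.21 and 10.68.

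Among the ATP- and AMP-degrading ectoenzymes, Entpd1 was lowest in the least mature cells. It read 4.82 and 5.40 on the CD27+CD11b- arrays (mean 5.11 ± 0.41), 7.25 and 6.68 on the CD27+CD11b+ arrays (6.97 ± 0.41) and 8.42 and 8.24 on the CD27-CD11b+ arrays (8.33 ± 0.13). No array of one subset overlapped those of another. Both CD27+CD11b- arrays lay at background, and the CD27-CD11b+ arrays stood well clear of it. Entpd1 was 3.21 (SE 0.25) higher in CD27-CD11b+ than in CD27+CD11b- cells, and at least 3.39-fold higher when measured from background. Off arrays gave 3.41 and on arrays 3.01. The separate steps were 1.85 (SE 0.25) with the gain of CD11b and 1.36 (SE 0.25) with the loss of CD27. They were 2.43 and 0.98 within the off arrays and 1.28 and 1.74 within the on arrays, so the larger step was not the same on both sides of the division.

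The 3 probe sets of Entpd1 ran the same way. The second, 1453586_at, read 4.44 and 4.74, then 5.81 and 5.90, then 8.02 and 7.72, a difference of 3.28 between the outer subsets. The third, 1450939_at, read 4.19 and 4.65, then 5.37 and 5.001, then 6.50 and 6.58, a difference of 2.12. Its subset means all lay below background, the highest at 6.54 in CD27-CD11b+ cells. On 1453586_at only the CD27-CD11b+ cells lay above background, and its second step was 2.01. With the 3 probe sets averaged the steps were 1.296 and 1.57. Macrophages also express Entpd1. In the same order of arrays the monocyte and macrophage list mean was 6.20 and 7.69, then 7.13 and 8.06, then 7.91 and 6.88, and the NK cell list mean was 11.33 and 11.30, then 11.74 and 11.74, then 12.10 and 11.98. The part of either in the Entpd1 values was not tested.

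Acpp encodes prostatic acid phosphatase, whose membrane form can act on AMP at the cell surface as CD73 does. It read 8.80 and 8.84 on the CD27+CD11b- arrays (8.82 ± 0.02), 6.996 and 6.68 on the CD27+CD11b+ arrays (6.84 ± 0.23) and 5.44 and 5.59 on the CD27-CD11b+ arrays (5.52 ± 0.10). The 3 subsets were apart, and the most mature cells had reached background. The difference was -1.98 (SE 0.16) with the gain of CD11b, 3.95-fold in size, -1.32 (SE 0.16) with the loss of CD27 and -3.30 (SE 0.16) between the outer subsets, at least 4.76-fold in size measured to background. Off arrays alone gave -1.81, -1.40 and -3.21, and on arrays alone -2.16, -1.23 and -3.39.

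This pattern rested on 1 probe set, 1441975_at. Probe set 1419832_s_at read 5.02 and 5.72, then 4.96 and 4.73, then 4.68 and 4.85, and 1453943_a_at stayed between 3.68 and 4.31 on all 6 arrays, both below background throughout. With the 3 probe sets averaged, the first, second and outer differences became -0.95, -0.39 and -1.34. The mean of 9 markers of helper-type innate lymphoid cells fell with Acpp at the gain of CD11b, but not at the loss of CD27. It was 8.12 and 8.59 in CD27+CD11b-, 6.68 and 6.92 in CD27+CD11b+ and 6.73 and 6.70 in CD27-CD11b+ cells. Of the 9 markers 8 lay above background and Itga1 at it. Of these, 4 fell with the gain of CD11b (Il7r, Tmem176a, Tmem176b and Cd200r1), 1 fell with the loss of CD27 (Il7r) and 6 fell between the outer subsets. The T cell list mean was 6.90 and 6.67, then 6.68 and 6.37, then 6.04 and 6.10, lowest in CD27-CD11b+ cells. In that list 4 of 9 lay above background and Cd3e, Cd4, Cd8a, Cd8b1 and Cd5 at it. Cd3d and Cd28 were lower between the outer subsets. The mice lack mature T cells in every group, so the T cell list does not count T cells here. The part of both lists in the Acpp result was not tested. For helper-type innate lymphoid cells, fewer cells and less RNA per cell cannot be told apart in such bulk samples.

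Nt5e, which encodes CD73, stayed near background. It read 6.49 and 6.38, then 6.52 and 6.66, then 5.85 and 6.19, with means of 6.43 ± 0.07, 6.59 ± 0.11 and 6.02 ± 0.24. Only CD27+CD11b+ exceeded the background level, by less than the spread between arrays. The lowest values were those of the CD27-CD11b+ cells, -0.57 (SE 0.17) against CD27+CD11b+ and -0.42 (SE 0.17) against CD27+CD11b-. Within the off arrays the outer difference was -0.30 and within the on arrays -0.54. The other probe sets, 1422974_at and 1459023_at, read 5.68 to 6.30 and 5.43 to 5.90. Of the 3 AMP- and ATP-acting ectoenzymes, Entpd1 was thus higher and Acpp lower in the most mature cells, while Nt5e was too near background to be placed.

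**Figure D2:**
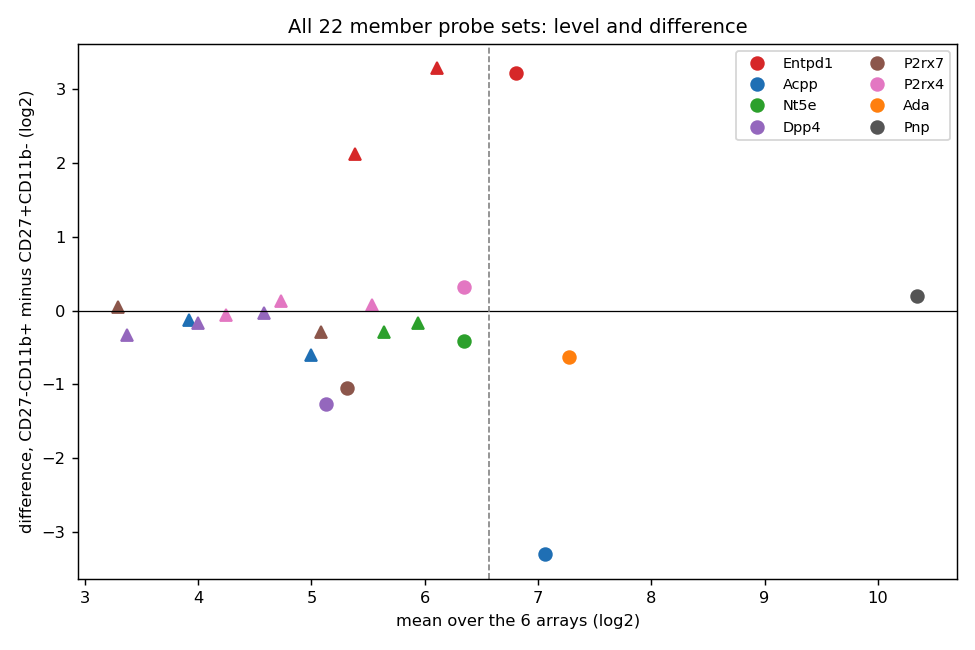
Mean log2 level over the 6 arrays (x axis) and log2 difference between CD27-CD11b+ and CD27+CD11b- cells (y axis) for the 22 member probe sets, coloured by gene. Circles are the brightest probe set of each gene, triangles the others, and the dashed line is the background of 6.57. All 3 Entpd1 probe sets lie at 2.12 or higher, while only 1 Acpp probe set lies far below 0, at -3.30.

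Both ATP-gated channels were dim. P2rx7, a channel opened by high ATP concentrations and linked to membrane pores and cell death in lymphocytes, read 5.71 and 6.23 in CD27+CD11b-, 4.81 and 5.31 in CD27+CD11b+ and 4.86 and 4.97 in CD27-CD11b+ cells. The CD27+CD11b- arrays were the higher pair, but all 6 lay below background, so no fold change is given. Its outer difference was -1.05 (SE 0.23), within the off arrays -0.74 and within the on arrays -1.37. Probe sets 1422218_at and 1419853_a_at had outer differences of -0.29 and 0.05, also below background.

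P2rx4, a channel prominent in macrophages and microglia, read 5.95 and 6.56, then 6.03 and 6.36, then 7.02 and 6.14. The subsets overlapped, and the differences were -0.06 (SE 0.31), 0.38 (SE 0.31) and 0.32 (SE 0.31) for the first, second and outer comparison. Its values followed the other division instead, with 6.36 to 7.02 on the on arrays and 5.95 to 6.14 on the off arrays. All on arrays lay above all off arrays for 8.29% of genes, and among the 8 members for P2rx4 alone. The monocyte and macrophage, neutrophil and dendritic cell list means were also higher on all on arrays. So was the megakaryocyte list mean, below background throughout. The part of these lists in the P2rx4 values was not tested.

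Ada, the deaminase that turns adenosine into inosine, read 7.44 and 7.75 in CD27+CD11b- (7.59 ± 0.22), 7.11 and 7.42 in CD27+CD11b+ (7.27 ± 0.22) and 7.35 and 6.58 in CD27-CD11b+ cells (6.96 ± 0.55). The mean was lower at each later stage, while the highest CD27-CD11b+ array reached into the range of CD27+CD11b+. The outer difference was -0.63 (SE 0.26). Within the off arrays it was -0.86 and within the on arrays -0.40. In each subset the on array was higher than the off array, by 0.31, 0.31 and 0.77, as for P2rx4 and Pnp and for 20.7% of all genes. Ada has 1 probe set here.

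Pnp, the next enzyme after Ada, was well above background and nearly level. It read 10.21 and 10.29 in CD27+CD11b-, 10.34 and 10.35 in CD27+CD11b+ and 10.68 and 10.22 in CD27-CD11b+ cells. The outer subsets overlapped, with a difference of 0.20 (SE 0.18) and a 95% interval of -0.22 to 0.62. A further probe set named for both Pnp and its close paralog Pnp2 was left out, and whether the Pnp probe set also detects Pnp2 is uncertain.

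Dpp4, the surface peptidase CD26 that in humans also binds adenosine deaminase, was below background on all arrays. It read 5.60 and 5.96 in CD27+CD11b-, 5.01 and 5.13 in CD27+CD11b+ and 4.50 and 4.54 in CD27-CD11b+ cells. The subsets did not overlap and ran downward in order of maturation. The difference was -1.26 (SE 0.17) between the outer subsets, with -1.06 within the off arrays and -1.46 within the on arrays, and the steps were -0.71 and -0.55. The remaining 3 Dpp4 probe sets differed by -0.34 to -0.03, and with all 4 averaged the outer difference was -0.45. Of the list means given with Acpp, that of innate lymphoid cells fell at the gain of CD11b alone, and that of T cells was lowest in CD27-CD11b+ cells. The part of both lists in the Dpp4 values was not tested. No fold change is given for a gene at this level.

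**Figure D3:**
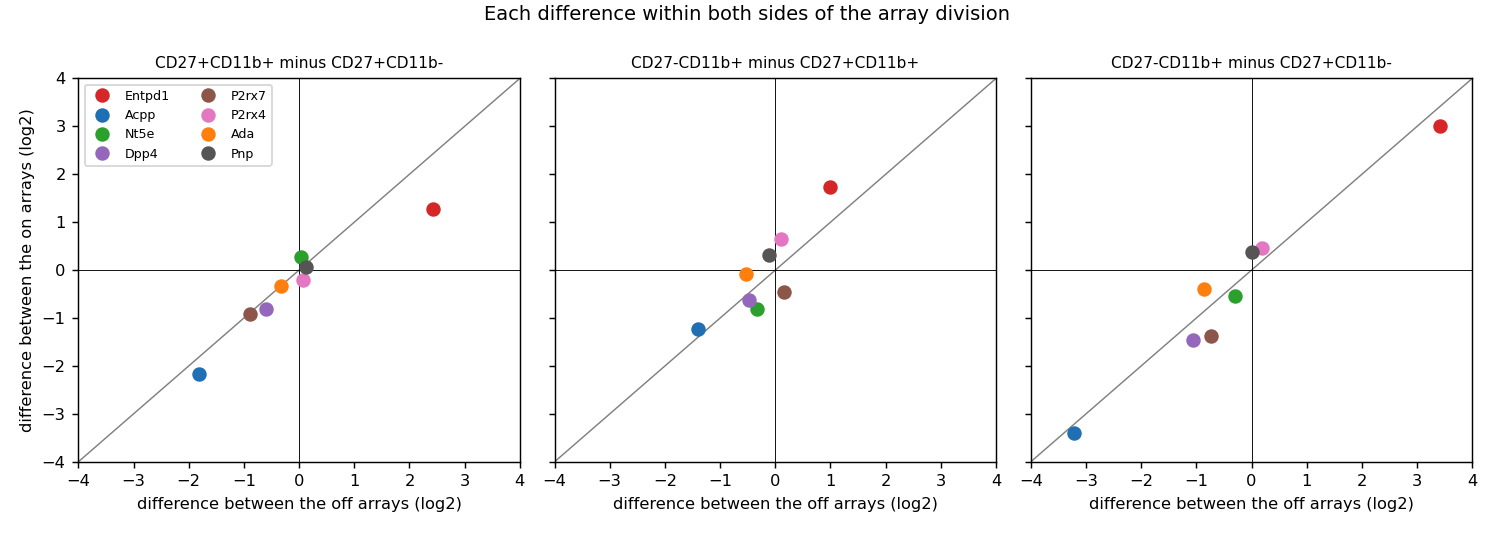
Log2 difference of each member within the off arrays (x axis) and within the on arrays (y axis) for the 3 comparisons, each point being 1 array minus 1 array, with the line of equal difference in grey. Entpd1 lies at 3.41 and 3.01 and Acpp at -3.21 and -3.39 in the outer comparison, close to the line, while P2rx4, Ada and Pnp stay within 1 of 0.

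Over the members, 1 of 8 was called with the gain of CD11b, where 0.121% of all genes were (0.033% higher and 0.0879% lower), and that 1 was lower. With the loss of CD27 1 of 8 was called, also lower, against 0.297% of all genes (0.17% higher and 0.126% lower). Between the outer subsets 3 of 8 were called, 1 higher and 2 lower, against 3.39% of all genes (2.24% higher and 1.15% lower). Acpp was the member called in either step, and the outer calls were Entpd1, Acpp and Dpp4. Since the choice of genes used these contrasts, nothing is read from these calls or from how they move with the settings. The same holds for the overlap counts and the median difference below. Without CD27+CD11b+ replicate 2 the first comparison had 0 members called, and without either array of CD27+CD11b+ or of CD27-CD11b+ the second had 0. The outer calls left out Dpp4 without either CD27-CD11b+ array and took in P2rx7 without either CD27+CD11b+ array. With the division as a block Entpd1 was called in both steps and P2rx7 between the outer subsets. With the probe sets of a gene averaged, Acpp was called between the outer subsets alone, Dpp4 nowhere, and Entpd1 with the loss of CD27 and between the outer subsets. Arrays did not overlap for 7, 4 and 6 of the 8, against 30.3%, 39.9% and 51.3% of all genes. The members' median outer difference was -0.53, with 3 positive and 5 negative, against a median of -0.01 over all genes.

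The genes most alike in profile were found for Entpd1 and Acpp by the root mean square difference of mean-centred values over the 6 arrays, among 8437 genes above background. Nearest to Entpd1 were Klrg1 (0.25), an inhibitory receptor for cadherins, Serpinb9b (0.27), an intracellular serpin, and Khdc1b (0.27). Klrg1 went from 9.71 ± 0.20 through 11.43 ± 0.06 to 13.23 ± 0.21 in order of maturation. Serpinb9b went from 6.80 ± 0.20 through 8.75 ± 0.41 to 9.89 ± 0.01. Nearest to Acpp were Inpp4b (0.36), a phosphoinositide phosphatase, Cd160 (0.37), a surface receptor of NK and T cells, and Dtx1 (0.38), the Notch-linked ubiquitin ligase Deltex. Cd160 went from 10.98 ± 0.14 through 9.79 ± 0.03 to 8.32 ± 0.07, and Inpp4b from 7.002 ± 0.16 through 5.21 ± 0.26 to 4.39 ± 0.24, below background after the first stage. The Khdc1b and Cd160 probe sets end in s_at, a suffix for probes that can match several transcripts.

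The other genes of the pathway were read from 6 lists, in which 72 of 83 were measured and 36 lay above background. With limma, 0 of 72 passed with the gain of CD11b and 0 with the loss of CD27. Between the outer subsets 2 rose and 0 fell, 2.78% against 3.39% of all genes. An unadjusted limma p under 0.05 was found for 5, 4 and 10 of the 72 in the first, second and outer comparison. Over all 18193 genes it was found for 690, 2027 and 3437. The list median between the outer subsets was -0.0008. The 2 that rose, Xdh and Enpp5, stood far apart in the pathway, at a late step of purine breakdown and as a surface enzyme. With the array division as a block 5 passed, 4 higher and 1 lower, among them both of these. Over all 18193 genes 1480 passed with that block, 965 higher and 515 lower.

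Xdh, xanthine oxidoreductase, acts after Pnp in purine breakdown and makes uric acid. It read 8.62 and 8.67 in CD27+CD11b-, 9.10 and 9.30 in CD27+CD11b+ and 9.68 and 9.74 in CD27-CD11b+ cells. The subsets were apart in order of maturation. The outer difference was 1.07 (SE 0.15, limma adjusted p = 0.0112), a 2.10-fold rise, with 1.13 within the off arrays and 1.01 within the on arrays. The call was lost without CD27+CD11b- replicate 1 (1.04, adjusted p = 0.0623), CD27-CD11b+ replicate 1 (1.10, adjusted p = 0.0898) or CD27-CD11b+ replicate 2 (1.03, adjusted p = 0.0665).

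Enpp5, of the ectonucleotide pyrophosphatase and phosphodiesterase family, read 5.93 and 5.86, then 6.26 and 6.51, then 7.89 and 6.90. Only the CD27-CD11b+ arrays exceeded background, and they lay 0.99 apart. The outer difference was 1.503 (SE 0.29, limma adjusted p = 0.0366), at least 1.78-fold from background, with 0.98 within the off arrays and 2.03 within the on arrays. The call was lost without CD27+CD11b- replicate 1 (1.54, adjusted p = 0.104), CD27+CD11b- replicate 2 (1.47, adjusted p = 0.103) or CD27-CD11b+ replicate 1 (1.01, adjusted p = 0.125).

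The further 3 passed with the array division as a block and not without it. Dck, deoxycytidine kinase, which salvages deoxynucleosides, read 10.05 and 9.76, then 9.48 and 9.09, then 8.92 and 9.15. It was -0.87 (SE 0.19) between the outer subsets, 1.83-fold in size, with a limma adjusted p of 0.0542 and, with the block, 0.00973. The outer subsets were apart, with -0.90 within the off arrays and -0.84 within the on arrays. Enpp4, of the same family as Enpp5, read 8.60 and 9.55, then 8.96 and 9.90, then 10.63 and 9.51. The subsets overlapped and the on array was higher in each, and the outer difference of 0.996 (SE 0.46) had a limma adjusted p of 0.293 and, with the block, 0.00604. Prkacb, a catalytic subunit of the cAMP-dependent protein kinase, read 10.54 and 10.05, then 10.69 and 10.25, then 11.04 and 11.09. The CD27-CD11b+ arrays were the highest, and the outer difference of 0.77 (SE 0.22) had a limma adjusted p of 0.104 and, with the block, 0.0256.

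By role, 1 of 11 ectonucleotidases and NAD enzymes rose between the outer subsets, 2 of them above background. Of the 12 P2 receptors beside P2rx4 and P2rx7, 0 passed and 1 lay above background, with outer differences of -0.34 to 0.46. Adora3, the only adenosine receptor measured, stayed between 4.93 and 5.46, below background, and differed by 0.05 (SE 0.20, limma adjusted p = 0.921). Among 9 genes of nucleoside transport and ATP release 0 passed, among 20 of purine salvage and breakdown 1 rose, and among 19 of the cAMP arm 0 passed, with medians of -0.08, 0.17 and 0.02. With the block these became 2 higher among the ectonucleotidases and NAD enzymes (Enpp4 and Enpp5) and 1 higher in the cAMP arm (Prkacb). Among salvage and breakdown 1 was higher and 1 lower with the block (Xdh and Dck). Over all 18193 genes 1480 passed with it. In the lists of nucleoside transport and ATP release, salvage and breakdown, and the cAMP arm, 4, 16 and 13 genes lay above background. The genes of the salvage and cAMP lists thus lay above background more often than the receptors.

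**Figure D4:**
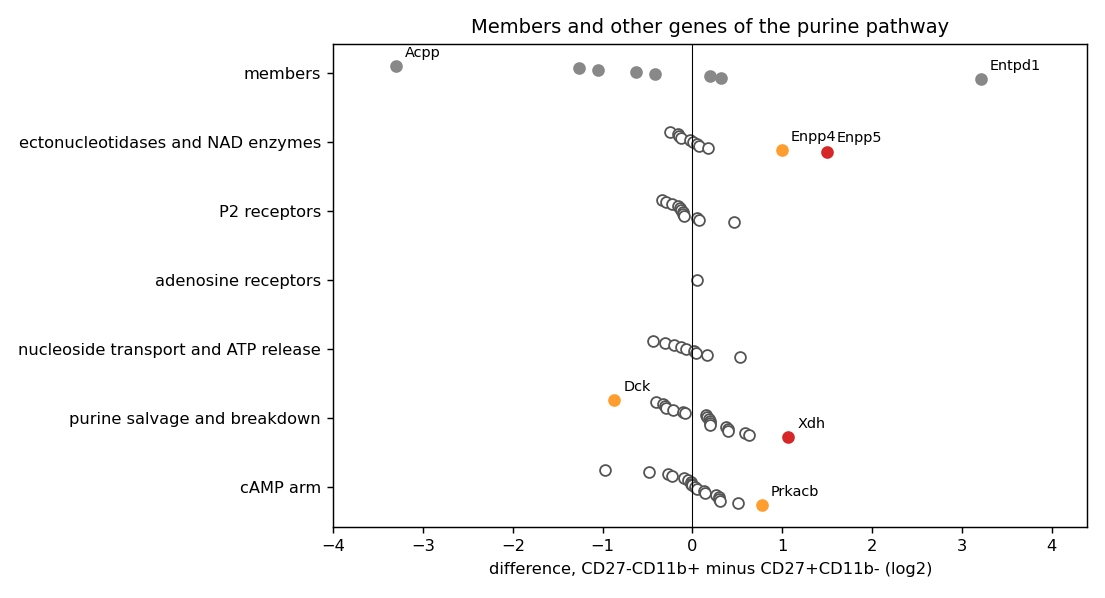
Log2 difference between CD27-CD11b+ and CD27+CD11b- cells (x axis) for the 8 members and the 72 other pathway genes, by list (y axis). Members are grey whether called or not. Red points passed an adjusted p of 0.05 in the limma fit over all genes, orange points passed with the array division as a block alone, and open points in neither fit. Entpd1 at 3.21 and Acpp at -3.30 lie outside the range of the other pathway genes, -0.98 to 1.503.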

How the data were processed

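Gene expression was read from the deposited table of log2 values for 45101 probe sets on 6 arrays. Per the submitters' processing notes, the authors obtained the deposited log2 values with RMA. Its version is not stated in the sources used here. RMA equalises the arrays' distributions, which takes out a shift common to most genes and shrinks differences of dim ones. Array medians were 5.26 to 5.36. The log2 scale was read from the range of values.

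Control probe sets (64) were left out. Of the rest, 34945 had 1 gene symbol in the array annotation, 932 several and 9160 none. Each gene took its brightest probe set. limma 3.58.1 in R 4.3.3 was fitted with 1 mean per subset over all 6 arrays (3 residual and 4.93 prior degrees of freedom), with Benjamini-Hochberg adjustment over 18193 genes, and was tested on simulated data. The members and lists were chosen with earlier results of these data known. Named were all members, pathway genes that passed, Adora3, 3 pathway genes that passed with a block (chosen after their values were seen), and the 3 most alike genes for members above background whose subset means span at least 1. The marker lists of neutrophils, dendritic cells, erythroid cells and megakaryocytes had 0 called genes in any comparison. In the T cell list 2 fell between the outer subsets. In the B cell list Cd22 alone fell, with the gain of CD11b and between the outer subsets.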

Additional observations from a re-analysis of the deposited data

How the results depend on the processing

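Of 330 differences of the 8 members under alternatives, 287 moved by less than 1 SD between replicates. Many could not move, since the block, trend, background and every-probe-set settings leave a member's difference as it was. Leaving out an array likewise leaves the comparison of the other subsets as it was. With the probe sets of a gene averaged, 12 moved further and 12 did not. With 32 added to the linear values, 11 moved further and 13 did not. Over all genes, the first, second and outer comparison gave 22, 54 and 617 calls, and 58, 296 and 1480 with the division of the arrays as a block, where members called were 2 in each of the first and second and pathway genes called were 5 in the outer. The mean over the probe sets of a gene gave 11 calls and 0 members in the first. With every probe set as a feature there were 0, 18 and 288 calls, 0 members in the first and 1 pathway gene in the outer. Adding 32 to the linear values gave 0, 11 and 367 calls, 0 members in the first and second and 1 pathway gene in the outer. With genes above background alone, which leaves out P2rx7 and Dpp4, and with an intensity trend in the prior, 2 members were called in the first. With 1 array left out, calls over all genes ranged from 4 to 30, 6 to 53 and 84 to 635, members from 0 to 1, 0 to 1 and 2 to 4, and pathway genes in the outer comparison from 0 to 3. The lone array of a subset is then assumed to vary like the others. The cause of these changes was not tested. Enpp5 lost its call with every probe set as a feature (adjusted p = 0.108) and with 32 added (adjusted p = 0.120).

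With the replicate number as a block the counts were 19, 58 and 760 over all genes and 1, 1 and 4 members, with 3 pathway genes in the outer comparison. Deviations of same-numbered arrays correlated at 0.62 between CD27+CD11b- and CD27+CD11b+ and at -0.25 and -0.14 between these and CD27-CD11b+. These correlations cannot settle whether the numbers pair the samples, since the on and off division crosses the numbers. That division puts replicate 2 of both CD27+ subsets with replicate 1 of CD27-CD11b+, and whether it pairs samples is not known. Signals near background limit what can be said of P2rx7, Dpp4, Nt5e and P2rx4.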
